A study of Mus musculus with 6 samples.

Results

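The genes described here are the nuclear genes of the mitochondrial respiratory chain, taken as the 83 genes, of 12065 in the deposited table, whose symbols matched a pattern for complexes I to V and cytochrome c. The pattern took symbols that begin with Ndufa, Ndufb, Ndufs, Ndufv or Ndufc followed at once by a digit (so not Ndufab1 or the Ndufaf assembly factors), with Sdha to Sdhd, Uqcr, Cyc1 or Cycs, with Cox4 to Cox8 and a letter, or with Atp5 and a letter. It used no measured value. By known role, 35 of the 83 encode subunits of complex I, 4 of complex II, 9 of complex III, 13 of complex IV and 15 of complex V, and Cycs encodes cytochrome c. The other 6 match the pattern by name and encode no subunit: the complex II assembly factors Sdhaf1 and Sdhaf2, the supercomplex factor Cox7a2l, Cox4nb (an older symbol of Emc8, of the endoplasmic reticulum), Atp5s and Atp5sl. GENCODE M21 lists all 83 as protein-coding, and none was at 0 in any library.

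The tissue was the distal tip of the mouse limb bud, with or without overexpression of Meis2, a homeobox transcription factor of the proximal limb, and polyA RNA was sequenced. The Meis2 overexpression embryos were HoxB6CreER;R26Meis2a-IRES-EYFP/Meis2a-IRES-EYFP, in which Cre switches on Meis2a and a yellow fluorescent protein from the Rosa26 locus. The control embryos were R26Meis2a-IRES-EYFP/Meis2a-IRES-EYFP, with the same alleles and no Cre. Every pregnant mouse was injected with 0.8 mg of 4-hydroxy-tamoxifen, which activates CreER, at embryonic day 8.3, so controls share the drug, and an effect of Cre itself cannot be told apart from one of Meis2. Each genotype has 3 libraries, 1 each from embryos of 37, 38 and 39 somites, and each library is a pool of the tips of 2 embryos. The transgene is on only in cells that had active HoxB6CreER at the time of injection, and the tips hold ectoderm, vessels and blood beside limb mesenchyme. Values below are given in the order of 37, 38 and 39 somites.

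The respiratory chain passes electrons from NADH (complex I) and succinate (complex II) through ubiquinone to complex III, then by cytochrome c to complex IV, which reduces oxygen. Complexes I, III and IV pump protons across the inner membrane as they do so, and the ATP synthase, complex V, lets them back to make ATP. Some subunits of complexes I, III, IV and V are encoded in the mitochondrial genome. Nuclear genes supply the others, many of them small accessory proteins.

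The deposited values are CPM, reads of a gene scaled by a factor for each library. They sum to 987039 to 1006933 per library, so the total is not exactly common. Whole reads could be recovered from them at 7622698 to 15395447 reads per library. The 83 genes had 15 to 19266 reads each per library, with a median of 654. Meis2 had 41.3, 33.4 and 28.2 CPM in Meis2 overexpression, against 20.6, 15.3 and 13.8 CPM in controls, a log2 fold change of 1.01 with a standard error (SE) of 0.16 and an adjusted p of 0.0185 in limma. Markers of some cell types moved with genotype. For comparison, limma called 1.47% of all genes at an adjusted p under 0.05, 0.787% higher and 0.68% lower in Meis2 overexpression. Log2 fold changes were below 0 in 50% of all genes. All 12 ectoderm markers had log2 fold changes below 0, 4 of them called, with a sum of 404 to 443 CPM in Meis2 overexpression, against 558 to 607 CPM in controls. All 13 erythroid markers had log2 fold changes above 0, 3 of them called, with a sum of 4401 to 5230 CPM in Meis2 overexpression, against 2577 to 3759 CPM in controls. All 10 endothelial markers had log2 fold changes above 0, 1 of them called, with a sum of 303 to 312 CPM in Meis2 overexpression, against 243 to 275 CPM in controls. None of the 11 limb mesenchyme markers was called, and their sum was 1678 to 2035 CPM in Meis2 overexpression, against 1832 to 2255 CPM in controls. They went both ways, with log2 fold changes between -0.78 and 0.37, 5 below 0 and 6 above. In a limma fit with genotype and somite number, 3 of the 11 had a called slope, against 0.356% of all genes. Of the lists for muscle, macrophages and nerve, 1 of 9, 2 of 7 and 3 of 6 genes had a row, and none was called. The nerve markers summed to 27.6 to 30.0 CPM in Meis2 overexpression, against 32.2 to 36.4 CPM in controls. In such mixed tissue fewer cells of a type and less RNA per cell cannot be told apart, and the part of these markers' cell types in the values below was not tested.

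Respiratory chain RNA was at nearly the same level in Meis2 overexpression and control tips. No gene of the 83 was called between the genotypes (limma on log2(CPM + 1), Benjamini-Hochberg adjusted p under 0.05 over all genes), against 177 of 12065 genes in the whole table (1.47%), 0.787% higher and 0.68% lower in Meis2 overexpression. edgeR and DESeq2 on the recovered reads also called 0 of the 83, beside 1.42% and 2.4% of all genes, and the 17 alternative fits together called none of the 83 while calling 0.464% to 2.82% of all genes. At an unadjusted p under 0.05 there were 9 of the 83, 1 higher and 8 lower in Meis2 overexpression (10.8%), against 15.9% of all genes, 8.12% higher and 7.77% lower. The median log2 fold change was -0.02, against -0.00 over the table, with 49 of the 83 (59%) below 0, against 50% of all genes. It was -0.04 without the Meis2 overexpression pool of 37 somites, -0.01 without the control pool of 38 somites and -0.05 without the control pool of 39 somites. The median size of the change, whatever its sign, was 0.07 on the log2 scale, against 0.10 over the table and 0.08 over the 7570 genes that averaged 20 CPM or more.

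A missed call does not show equal levels, so the intervals were read as well. The 95% interval of the fold change lay within 1.5-fold in either direction for 81 of the 83 genes, against 86% of all genes. The exceptions were Cox4i2 and Atp5s, which are among the genes with the fewest reads. Among genes that averaged 20 CPM or more it did so for 75 of 75 from the set of 83, against 96.2% of all such genes. The summed level of the 83 genes was 8273, 8111 and 8174 CPM in Meis2 overexpression, against 8376, 8333 and 8096 CPM in controls, a share of the table of 0.822% ± 0.001 in Meis2 overexpression and 0.823% ± 0.013 in controls (SD, n = 3 each). The sums overlapped between genotypes, and the highest and the lowest were both control libraries. Gene by gene, the Meis2 overexpression pools held the highest value of the 6 for 8, 14 and 10 of the 83 genes, against 15, 31 and 5 for the control pools. The control pool of 38 somites thus held the most, and it was also the lowest for 16 genes.

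**Figure D1:**
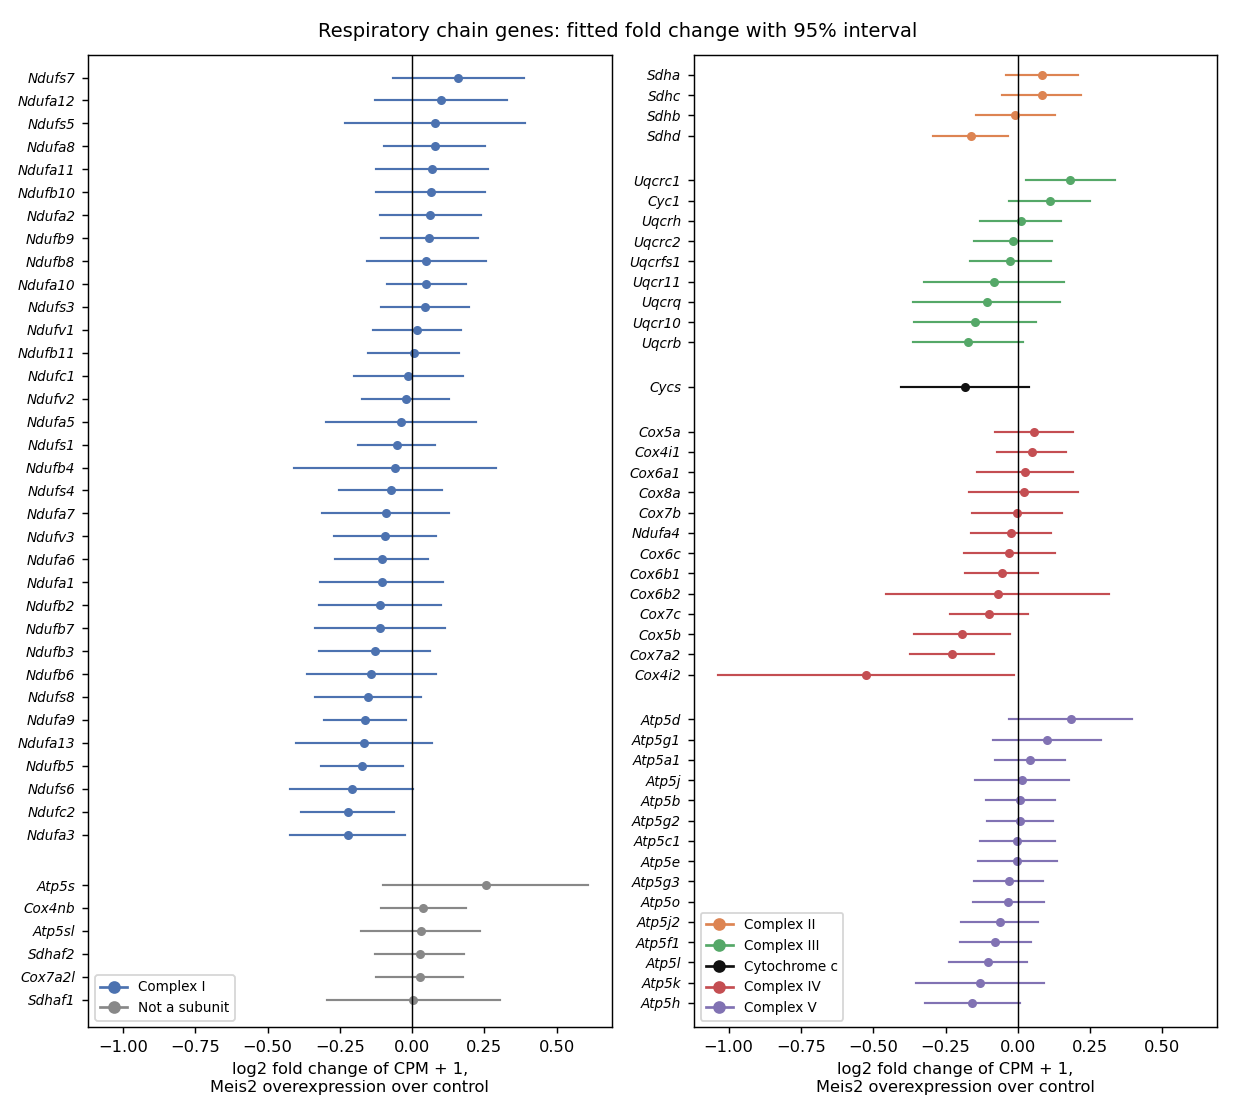
Fitted log2 fold change of CPM + 1 (Meis2 overexpression over control; points) with its 95% interval (lines) for 82 of the 83 genes, grouped by complex. Fold changes run between -0.53 (Cox4i2) and 0.25 (Atp5s), most intervals include 0, and none of the genes was called after adjustment.

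In 12 of the 83 genes all 3 Meis2 overexpression pools lay on the same side of all 3 control pools (14.5%), against 20.7% of all genes. Of the 12, Uqcrc1 was higher and 11 were lower in Meis2 overexpression (13.3%), against 10.4% of all genes in each direction. The 11 were Ndufa3, Ndufa6, Ndufa9, Ndufb5, Ndufc2 and Ndufs8 of complex I, Sdhd of complex II, Cox5b, Cox7a2 and Cox7c of complex IV, and Atp5l of complex V. Cox5b, Cox7c and Atp5l have near-identical copies elsewhere in the genome, described below, and the other 8 have none by the same measure. Their fold changes lay between -0.23 and -0.10 on the log2 scale.

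Complex I, which oxidises NADH, had 22 of its 35 nuclear genes at log2 fold changes below 0, a median log2 fold change of -0.05 and no call. Its lowest adjusted p was 0.178 in limma. The 7 core genes, whose proteins carry the flavin and the iron-sulfur clusters, had a median of -0.02, and the 28 accessory genes a median of -0.08. Summed over the complex, the level was 1696, 1664 and 1678 CPM in Meis2 overexpression, against 1761, 1748 and 1683 CPM in controls. The lowest control pool, of 39 somites, lay between the Meis2 overexpression pools, so the groups overlapped.

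Ndufs7, the core subunit that holds the last iron-sulfur cluster before ubiquinone, had the highest fold change of complex I, at 22.9, 28.1 and 24.9 CPM in Meis2 overexpression, against 24.6, 22.1 and 20.8 CPM in controls. On the log2 scale the change was 0.16 (95% interval -0.07 to 0.39) at an adjusted p of 0.466 in limma. Its 37 somite pools stood in the opposite order to the other stages. Ndufa3, an accessory subunit, had the lowest, at 22.7, 20.5 and 19.1 CPM in Meis2 overexpression, against 24.1, 25.0 and 24.1 CPM in controls. This was a log2 fold change of -0.22 (95% interval -0.42 to -0.02, limma adjusted p = 0.267). Every Meis2 overexpression pool was below every control pool, as in Ndufc2, an accessory subunit of the membrane arm, at 47.1, 45.4 and 45.6 CPM in Meis2 overexpression, against 52.5, 58.5 and 51.0 CPM in controls. The fitted log2 fold change of Ndufc2 was -0.22, between -0.38 and -0.06 at 95%, with a limma adjusted p of 0.178.

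Complex II, succinate dehydrogenase, is encoded by nuclear genes alone, and of its 4 genes 2 had log2 fold changes above 0 and 2 below, with a median of 0.04. Sdha, the flavoprotein that oxidises succinate, had 217, 199.7 and 219 CPM in Meis2 overexpression, against 200.02, 202 and 197 CPM in controls. The log2 fold change was 0.08 (95% interval -0.04 to 0.21, adjusted p = 0.483, limma). The 38 somite pool of the Meis2 overexpression genotype lay among the controls and the other 2 above them. Sdhd, a membrane anchor, had 109, 100.2 and 102 CPM in Meis2 overexpression, against 116, 113 and 119 CPM in controls. limma gave a log2 fold change of -0.16, with a 95% interval of -0.29 to -0.03 and an adjusted p of 0.22. The groups did not overlap for Sdhd, while Sdhc, the other anchor, overlapped at a log2 fold change of 0.08, with 72.6, 76.8 and 76.8 CPM in Meis2 overexpression, against 71.3, 68.5 and 73.5 CPM in controls. Sdhb, the iron-sulfur subunit, had a log2 fold change of -0.01. The sum over the complex was 489, 474 and 496 CPM in Meis2 overexpression, against 484, 481 and 482 CPM in controls.

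Complex III, cytochrome bc1, held the 1 gene of the 83 that was higher in every Meis2 overexpression pool. Uqcrc1, a core protein on the matrix side, had 133, 145 and 154 CPM in Meis2 overexpression, against 129.7, 119 and 131 CPM in controls. On the log2 scale the change was 0.18 (95% interval 0.03 to 0.34) at an adjusted p of 0.245 in limma. Its partner core protein Uqcrc2 had the highest level of the complex, at 210.1, 187 and 196 CPM in Meis2 overexpression, against 196, 209 and 195 CPM in controls, with overlapping groups. This was a log2 fold change of -0.02 (95% interval -0.15 to 0.12, limma adjusted p = 0.917). The subunits that carry electrons, Cyc1 (cytochrome c1) and Uqcrfs1 (the Rieske iron-sulfur protein), had log2 fold changes of 0.11 and -0.03. Uqcr10, a small accessory subunit, had 31.1, 28.6 and 29.2 CPM in Meis2 overexpression, against 37.4, 32.1 and 29.7 CPM in controls. The fitted log2 fold change of Uqcr10 was -0.15, between -0.36 and 0.06 at 95%, with a limma adjusted p of 0.468. The control pool of 39 somites came within the Meis2 overexpression range for Uqcr10. The median of the 9 genes was -0.03.

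Cytochrome c, the soluble carrier between complexes III and IV that also triggers caspases when it leaves mitochondria, is encoded in somatic tissue by Cycs. Cycs had 122, 93.5 and 97.8 CPM in Meis2 overexpression, against 118, 128 and 109 CPM in controls. The log2 fold change was -0.18 (95% interval -0.40 to 0.04, adjusted p = 0.4, limma). The Meis2 overexpression pool of 37 somites lay among the controls and the other 2 lay below all of them. The promoter windows below show letters associated with the regulators of chain genes, and are those of Cycs, the complex IV gene Cox6a1 and the complex V gene Atp5l, chosen because each holds the core letters of the motif of NRF-1, a factor known to bind chain genes, outside annotated exons. They are RefSeq sequences of build GRCm38.p6, on the minus strand, from Cycs (chr6:50566570-50566642), Cox6a1 (chr5:115348982-115349129) and Atp5l (chr9:44920752-44920992), and end 1, 24 and 10 bases before the annotated start. Annotated exonic bases were left out. Capitals mark the letters CGCATGCG (NRF-1 core), CCGGAAG (ETS factors such as GABP), CCAAT (the box of that name), GGGCGG (the GC box) and TATAAA (the TATA box), on either strand.
Cycs: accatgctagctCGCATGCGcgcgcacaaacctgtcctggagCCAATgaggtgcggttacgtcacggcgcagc
Cox6a1: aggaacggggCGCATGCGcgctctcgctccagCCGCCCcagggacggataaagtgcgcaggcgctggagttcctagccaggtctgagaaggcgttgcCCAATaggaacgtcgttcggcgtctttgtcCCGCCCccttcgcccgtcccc
Atp5l: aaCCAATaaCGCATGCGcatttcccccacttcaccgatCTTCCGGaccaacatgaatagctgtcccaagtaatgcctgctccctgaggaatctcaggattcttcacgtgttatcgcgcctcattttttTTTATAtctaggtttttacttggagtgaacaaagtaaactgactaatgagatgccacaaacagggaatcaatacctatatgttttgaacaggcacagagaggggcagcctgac

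RefSeq windows of 250 bases before the start were found for 69 of the 83 genes. The letters CGCATGCG were in 8 of the 69 (11.6%), against 1.75% of 27025 genes, namely Atp5g2, Atp5j, Atp5k, Atp5l, Cox6a1, Cycs, Ndufa11 and Ndufa8. CCGGAAG was in 13 (18.8%), against 7.83% of genes, and AAGATGGC, for YY1, in 2 (2.90%), against 1.83%. GGGCGG was in 37.7%, against 35.4%, CCAAT in 44.9%, against 37.5%, and TATAAA in 7.25%, against 14.3%. The 27025 are all nuclear RefSeq genes with a window, not only those expressed in the tips. A comparison with expressed genes alone was not made. Matches were sought on both strands, and a match describes letters only. None of the 8 genes with the NRF-1 core letters was called, and their log2 fold changes lay between -0.18 (Cycs) and 0.08 (Ndufa8). Nrf1 itself had 80.2, 78.9 and 79.1 CPM in Meis2 overexpression, against 87.7, 77.6 and 83.2 CPM in controls. Gabpa, the DNA-binding subunit of GABP, had 139, 129 and 129 CPM in Meis2 overexpression, against 128, 148 and 139 CPM in controls. Groups overlapped in each.

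Complex IV, cytochrome c oxidase, had 9 of its 13 nuclear genes below 0 and a median of -0.03, Ndufa4 counted with it. Summed, its level was 1069, 1051 and 1018 CPM in Meis2 overexpression, against 1089, 1084 and 1044 CPM in controls. Cox4i1, the ubiquitous form of subunit 4 and the nuclear gene of the complex with the highest level, had 149.9, 153 and 144 CPM in Meis2 overexpression, against 144, 141 and 146 CPM in controls. limma gave a log2 fold change of 0.05, with a 95% interval of -0.07 to 0.17 and an adjusted p of 0.684. Cox5a, a matrix-side subunit, had 111, 114 and 103 CPM in Meis2 overexpression, against 104, 109 and 103 CPM in controls. On the log2 scale the change was 0.06 (95% interval -0.08 to 0.19) at an adjusted p of 0.681 in limma. Both had overlapping groups.

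Cox7a2, the widely expressed form of subunit 7A, came closest to a call of all 83 genes. It had 81.4, 73.8 and 71.7 CPM in Meis2 overexpression, against 86.7, 90.3 and 88.8 CPM in controls. This was a log2 fold change of -0.23 (95% interval -0.37 to -0.08, limma adjusted p = 0.137). All Meis2 overexpression pools were below all control pools. Without the Meis2 overexpression pool of 37 somites its adjusted p was 0.0837 in limma, the lowest of any of the 83 genes under any alternative. Cox5b, a zinc-binding subunit, had 59.8, 65.6 and 55.9 CPM in Meis2 overexpression, against 72.4, 68.5 and 66.6 CPM in controls, again without overlap. The fitted log2 fold change of Cox5b was -0.19, between -0.36 and -0.03 at 95%, with a limma adjusted p of 0.246. Cox6a1 had 75.8, 77.0 and 76.0 CPM in Meis2 overexpression, against 83.3, 69.3 and 72.8 CPM in controls. Cox6b1 had 109, 103 and 102 CPM in Meis2 overexpression, against 113, 107 and 107 CPM in controls. Cox8a had 78.8, 92.3 and 85.7 CPM in Meis2 overexpression, against 94.1, 80.1 and 79.2 CPM in controls. These 3 ubiquitous subunits overlapped between genotypes, with log2 fold changes of 0.03, -0.06 and 0.02. Ndufa4, first assigned to complex I and now to complex IV, had a log2 fold change of -0.02, at 121, 115 and 117 CPM in Meis2 overexpression, against 117, 128 and 114 CPM in controls.

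The tissue-restricted forms of complex IV were low. Cox4i2, the lung and hypoxia-responsive form of subunit 4, had 2.71, 1.94 and 4.66 CPM in Meis2 overexpression, against 4.45, 4.19 and 5.51 CPM in controls. The log2 fold change was -0.53 (95% interval -1.04 to -0.01, adjusted p = 0.304, limma). The Meis2 overexpression pools of 37 and 38 somites lay below every control and the pool of 39 somites among them. Per transcript length, Cox4i2 supplied 2.12% ± 0.997 of the RNA of subunit 4 in Meis2 overexpression and 3.27% ± 0.414 in controls (SD, n = 3 each). Cox6b2, the testis form of subunit 6B, had 3.37, 2.46 and 2.91 CPM in Meis2 overexpression, against 3.50, 3.32 and 2.52 CPM in controls. It supplied 3.01% ± 0.384 of the RNA of subunit 6B in Meis2 overexpression and 3.09% ± 0.455 in controls (SD, n = 3 each), per transcript length. Cox6a2, Cox7a1, Cox8b and Ndufa4l2 would match the pattern, but no row carried these symbols, so they were not analysed here.

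Complex V, the ATP synthase, gave 46.8% of the summed CPM of the 83 genes and had the steadiest levels, with a median log2 fold change of -0.00 and a median coefficient of variation over the 6 pools of 3.93%, against 7.63% in complex I. Its genes also had more reads, at a median of 130 CPM, against 32.5 CPM in complex I. The part of the level in this difference was not tested. The sum over complex V was 3873, 3815 and 3856 CPM in Meis2 overexpression, against 3909.8, 3869 and 3785 CPM in controls. Atp5b, the catalytic beta subunit, had 1226, 1213 and 1246 CPM in Meis2 overexpression, against 1247, 1192 and 1223 CPM in controls. limma gave a log2 fold change of 0.01, with a 95% interval of -0.11 to 0.13 and an adjusted p of 0.946. Atp5a1, the alpha subunit, had 895, 901 and 917 CPM in Meis2 overexpression, against 916, 857 and 863 CPM in controls. These 2 genes of the catalytic head gave 54.9% of the CPM of the complex, and both had overlapping groups.

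Atp5d, the delta subunit of the central stalk, had the highest fold change of the complex, at 57.1, 70.4 and 63.2 CPM in Meis2 overexpression, against 62.1, 51.0 and 54.5 CPM in controls. On the log2 scale the change was 0.18 (95% interval -0.03 to 0.39) at an adjusted p of 0.381 in limma. Atp5k, subunit e of the membrane part, had the lowest among genes without a near-identical copy, at 48.2, 43.8 and 40.3 CPM in Meis2 overexpression, against 46.2, 55.2 and 44.0 CPM in controls. This was a log2 fold change of -0.13 (95% interval -0.35 to 0.09, limma adjusted p = 0.537). Neither separated the genotypes. Subunit c, which forms the rotating ring, is made as the same mature protein from Atp5g1, Atp5g2 and Atp5g3. Atp5g1 had 59.6, 64.0 and 59.9 CPM in Meis2 overexpression, against 63.6, 56.8 and 51.1 CPM in controls. Atp5g2 had 148, 152 and 151 CPM in Meis2 overexpression, against 149.8, 152 and 146 CPM in controls. Atp5g3 had 282, 284 and 282 CPM in Meis2 overexpression, against 277, 304 and 287 CPM in controls. Groups overlapped in all 3, with log2 fold changes of 0.10, 0.01 and -0.03.

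Among the 14 catalytic core subunits of complexes I, II, III and V the median log2 fold change was 0.00, with 7 below 0, and among the other 63 subunits, cytochrome c included, it was -0.06, with 42 below 0. The difference between these classes was not tested. The 6 genes that encode no subunit had log2 fold changes above 0 in limma, with a median of 0.03, but Sdhaf1 was at -0.01 with quantile scaling, edgeR and DESeq2, and all of them but Atp5s were below 0 with some library left out. Atp5s, the highest of them, had 6.08, 5.44 and 4.85 CPM in Meis2 overexpression, against 3.60, 4.45 and 5.27 CPM in controls. The fitted log2 fold change of Atp5s was 0.25, between -0.10 and 0.61 at 95%, with a limma adjusted p of 0.461. Cox7a2l, which joins complexes III and IV in supercomplexes, had 67.2, 68.9 and 61.6 CPM in Meis2 overexpression, against 63.1, 67.2 and 63.7 CPM in controls. Cox4nb had 65.8, 70.8 and 75.1 CPM in Meis2 overexpression, against 68.9, 68.2 and 68.9 CPM in controls. Genotypes overlapped in each of these 3 genes. Sdhaf1 had 10.7, 14.1 and 11.3 CPM in Meis2 overexpression, against 12.7, 12.9 and 10.3 CPM in controls. Sdhaf2 had 45.5, 49.3 and 44.8 CPM in Meis2 overexpression, against 45.6, 47.1 and 44.3 CPM in controls. These assembly factors, which insert the iron-sulfur clusters and the flavin of succinate dehydrogenase, also overlapped.

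**Figure D2:**
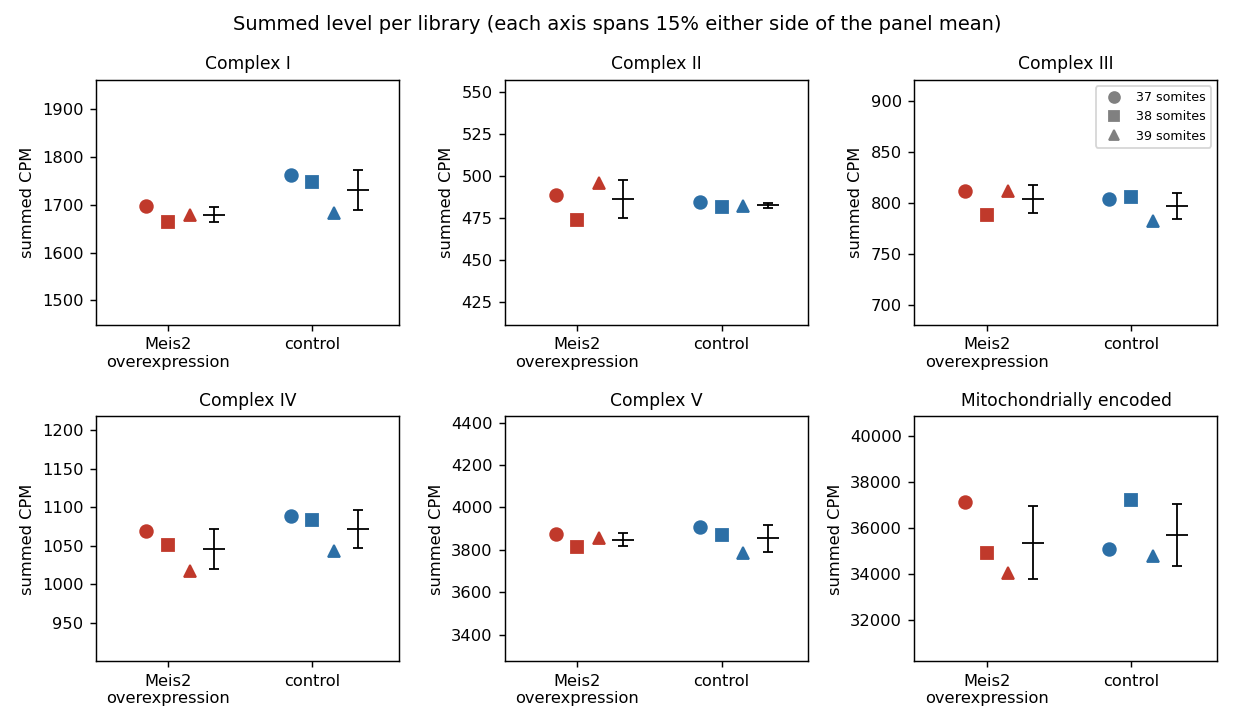
Summed CPM per library for the nuclear genes of each complex and for the 13 mitochondrially encoded genes, Meis2 overexpression left of control. Points are single libraries with the somite stage as the marker, bars give the mean ± SD of 3, and the genotypes overlap in every panel.

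Levels between genes were compared as CPM per kb of transcript. By this measure, over all 6 pools, Atp5b was highest at 639 CPM per kb, followed by Atp5g3 at 401, Atp5a1 at 361 and Atp5g2 at 256. In Meis2 overexpression, Atp5b had 641 ± 8.55 CPM per kb, against 637 ± 14.3 in controls (SD, n = 3 each). Atp5g3 had 396 ± 1.24 CPM per kb in Meis2 overexpression, against 405 ± 18.8 in controls, and Atp5a1 had 366 ± 4.64, against 356 ± 13.2, so the order of these 3 was the same in each genotype. From the fifth place the levels lay close: Atp5h, Uqcrh, Atp5c1, Ndufa4, Cox4i1 and Atp5o had means between 191 and 207 CPM per kb. The ranges of neighbouring genes in that order overlapped over the 6 pools. The median gene had 164 CPM per kb in complex V, 155 in complex IV, 77.3 in complex II, 72.2 in complex III and 48.4 in complex I, and Cycs had 35.6. Near-identical copies of Cycs, described below, held 46.3% of the CPM summed over Cycs and these copies, and the 35.6 leaves them out. The well-supported transcripts of 4 genes differ widely in length, and the lengths used for the other genes may also be inexact. Atp5g1 is 12.5 CPM per kb with its longest well-supported transcript and 99.3 with its shortest, and Ndufb2 and Uqcrq span 6.33 to 60.8 and 16.5 to 61.9, so their places in the order are not firm. Atp5g2 spans 205 to 340.

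**Figure D3:**
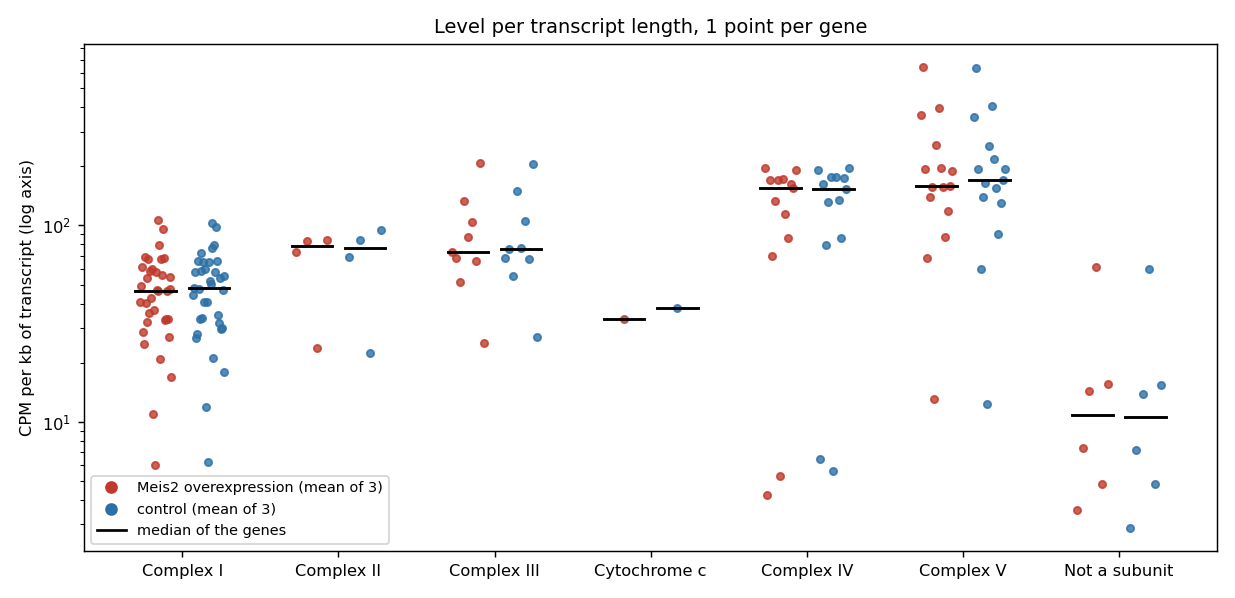
Mean CPM per kb of transcript (log axis) in Meis2 overexpression (red, left) and control pools (blue, right), 1 point per gene, with the median of each complex as a black line. Complex V and complex IV genes sit highest, at medians of 164 and 155 CPM per kb, and complex I genes at 48.4, with nearly the same spread in each genotype.

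The 13 mitochondrially encoded subunit genes summed to 37137, 34903 and 34066 CPM in Meis2 overexpression, against 35091, 37241 and 34773 CPM in controls, a share of the table of 3.55% ± 0.138 in Meis2 overexpression and 3.55% ± 0.125 in controls (SD, n = 3 each). Their summed CPM, which are not scaled by length, stood to the sum of the 83 nuclear genes in a ratio of 4.49, 4.30 and 4.17 in Meis2 overexpression pools, against 4.19, 4.47 and 4.29 in control pools, with full overlap. mt-Co1, the catalytic subunit of complex IV, had 10098, 9293 and 9449 CPM in Meis2 overexpression, against 9557, 9566 and 9222 CPM in controls. Of the 13, the lowest unadjusted p was that of mt-Nd3, a membrane subunit of complex I, at 322, 313 and 314 CPM in Meis2 overexpression, against 319, 399 and 347 CPM in controls. The log2 fold change was -0.16 (95% interval -0.33 to 0.01, adjusted p = 0.346, limma). Next came mt-Nd1 and mt-Nd6, also of complex I, which overlapped at log2 fold changes of -0.09 and 0.09. None of the 13 was called.

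Other genes that build or feed the chain were taken from 9 lists. Of the 120 symbols listed, 105 had a row. The lists hold both Twnk and its older symbol Peo1, of which only Peo1 had a row. Of these, the mitochondrially encoded subunits included, 0 were called by limma or edgeR, against 1.47% and 1.42% of all genes, and 10 (9.52%) had an unadjusted p under 0.05, against 15.9% of all genes. The groups did not overlap in 7 of the 105 that were higher and 11 that were lower, against 10.4% of all genes in each direction. The genes named from the lists are mainly those of smallest p, a choice that favours separated groups. DESeq2 called 1 of the 105 (0.952%, against 2.4% of all genes). It was Ogdh, the first enzyme of the 2-oxoglutarate dehydrogenase complex of the citric acid cycle, at an adjusted p of 0.0403. Ogdh had 139, 167 and 148 CPM in Meis2 overexpression, against 129, 109.8 and 128 CPM in controls. limma gave a log2 fold change of 0.30, with a 95% interval of 0.12 to 0.49 and an adjusted p of 0.126. Every Meis2 overexpression pool was above every control pool. Polg, the mitochondrial DNA polymerase, had 71.6, 79.2 and 75.1 CPM in Meis2 overexpression, against 63.8, 61.0 and 67.6 CPM in controls, also without overlap. On the log2 scale the change was 0.23 (95% interval 0.08 to 0.38) at an adjusted p of 0.144 in limma. Idh3b, a subunit of isocitrate dehydrogenase, had 88.5, 88.4 and 83.8 CPM in Meis2 overexpression, against 100.3, 95.3 and 92.6 CPM in controls, with every Meis2 overexpression pool below every control pool. Pdha1, of pyruvate dehydrogenase, had 169.6, 159.7 and 169.5 CPM in Meis2 overexpression, against 181, 185 and 179 CPM in controls, with every Meis2 overexpression pool below every control pool. Their log2 fold changes were -0.14 and -0.13, with adjusted p of 0.287 and 0.29 in limma.

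Among the 10 measured complex I assembly factors, Ndufaf1 had 19.5, 20.2 and 19.4 CPM in Meis2 overexpression, against 13.4, 17.2 and 17.4 CPM in controls, with every Meis2 overexpression pool above every control pool. Ndufaf4 had 61.7, 51.1 and 53.0 CPM in Meis2 overexpression, against 63.0, 69.4 and 60.6 CPM in controls, with overlapping groups. Their log2 fold changes were 0.29 and -0.22, and neither was called. Nubpl, which brings iron-sulfur clusters to complex I, had 14.9, 15.9 and 15.4 CPM in Meis2 overexpression, against 17.05, 17.01 and 19.3 CPM in controls, without overlap. Of the 12 genes for coenzyme Q and cytochrome c maturation, Coq3, a methyltransferase of coenzyme Q synthesis, had 15.2, 14.5 and 14.5 CPM in Meis2 overexpression, against 17.5, 17.4 and 18.3 CPM in controls. This was a log2 fold change of -0.25 (95% interval -0.45 to -0.06, limma adjusted p = 0.206). The genotypes did not overlap for Coq3, nor for Coq10b, a coenzyme Q binding protein, with 18.1, 15.5 and 17.01 CPM in Meis2 overexpression, against 18.8, 21.8 and 20.7 CPM in controls. Hccs, the haem lyase of cytochromes c and c1, overlapped at a log2 fold change of -0.11. Of the 16 regulators of mitochondrial biogenesis, Tfam, which packages and transcribes mitochondrial DNA, had 115, 106 and 108 CPM in Meis2 overexpression, against 112, 118 and 114 CPM in controls, with overlapping groups. Peo1, the helicase of mitochondrial DNA, had 61.3, 57.2 and 54.4 CPM in Meis2 overexpression, against 52.7, 49.6 and 53.9 CPM in controls, without overlap, and Pprc1, a PGC-1-related coactivator, overlapped at a log2 fold change of 0.15.

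In the assembly list of complexes II, III and V, Ttc19, a complex III assembly factor, had 24.8, 22.3 and 23.1 CPM in Meis2 overexpression, against 25.3, 27.2 and 28.6 CPM in controls, with every Meis2 overexpression pool below every control pool. Tmem70 and Atpaf1, which assemble complex V, overlapped at log2 fold changes of -0.14 and -0.12. In the complex IV list, Cox18, Surf1 and Taco1 overlapped at -0.23, 0.15 and -0.10. Of the list outside the pattern, Usmg5 of complex V, its inhibitor Atpif1 and Ndufab1, the acyl carrier protein of complex I, overlapped at -0.08, -0.03 and -0.03. None of these was called.

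Carriers of the inner membrane were listed with the outer membrane and import. Slc25a4, the ADP/ATP carrier, had 287, 262 and 278 CPM in Meis2 overexpression, against 304, 292 and 293 CPM in controls, with every Meis2 overexpression pool below every control pool. Slc25a3, the phosphate carrier, had 356, 359 and 359.7 CPM in Meis2 overexpression, against 333, 339.6 and 348 CPM in controls, with every Meis2 overexpression pool above every control pool. Phb2, a prohibitin, had 237, 233 and 231 CPM in Meis2 overexpression, against 225, 211 and 213 CPM in controls, also above without overlap. Their log2 fold changes were -0.10, 0.07 and 0.11, and their adjusted p were 0.385, 0.479 and 0.336 in limma. The lists for complex I assembly, coenzyme Q and cytochrome c maturation, regulators and the 17 genes of the citric acid cycle had median log2 fold changes of -0.04, 0.03, -0.06 and -0.02. Those for complex IV assembly (12 genes), for complexes II, III and V assembly (6), for subunits outside the symbol pattern (4) and for the outer membrane and import (15) had medians of -0.02, -0.12, -0.03 and 0.01.

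No chain gene had a called trend over stage. In a fit with genotype and somite number, 0 of the 83 had a called slope in limma, against 43 of 12065 genes (0.356%), 0.257% with a slope above 0 and 0.0995% with one below. edgeR and DESeq2 also called 0 of the 83, against 0.348% and 0.613% of all genes, and 0 had an unadjusted p under 0.05 in limma, against 6.28% of all genes. Slopes were below 0 in 63 of the 83 (75.9%), against 50.8% of all genes, with a median of -0.02 log2 per somite, against -0.00. Without the control pool of 39 somites, 48 of the 83 slopes were below 0 and the median was -0.01. The genes are not independent of each other, and a pool each per stage and genotype gives the slope 3 stages only. The lowest adjusted p of a slope was 0.847. The slope differed by genotype in 0 of the 83 and in 0 genes overall (0%) in limma, with 0 of the 83 and 1.99% of all genes at an unadjusted p under 0.05. edgeR called no gene for this difference, and DESeq2 called 3 genes (0.0249%), none of the 83.

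The 3 chain genes with the smallest p among positive slopes were Cox4i2, Uqcrc1 and Atp5sl, with slopes of 0.22, 0.06 and 0.07 log2 per somite. Among negative slopes the 3 were Cycs, Ndufb9 and Uqcr10, with -0.11, -0.08 and -0.10. Ndufb9, an accessory subunit of complex I, had 59.2, 56.5 and 52.9 CPM in Meis2 overexpression, against 56.1, 56.0 and 49.7 CPM in controls. Atp5sl, a protein named for its likeness to Atp5s, had 16.6, 17.4 and 18.4 CPM in Meis2 overexpression, against 16.3, 16.8 and 18.1 CPM in controls. In each genotype the pool of 39 somites was the highest for Atp5sl and the lowest for Ndufb9.

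**Figure D4:**
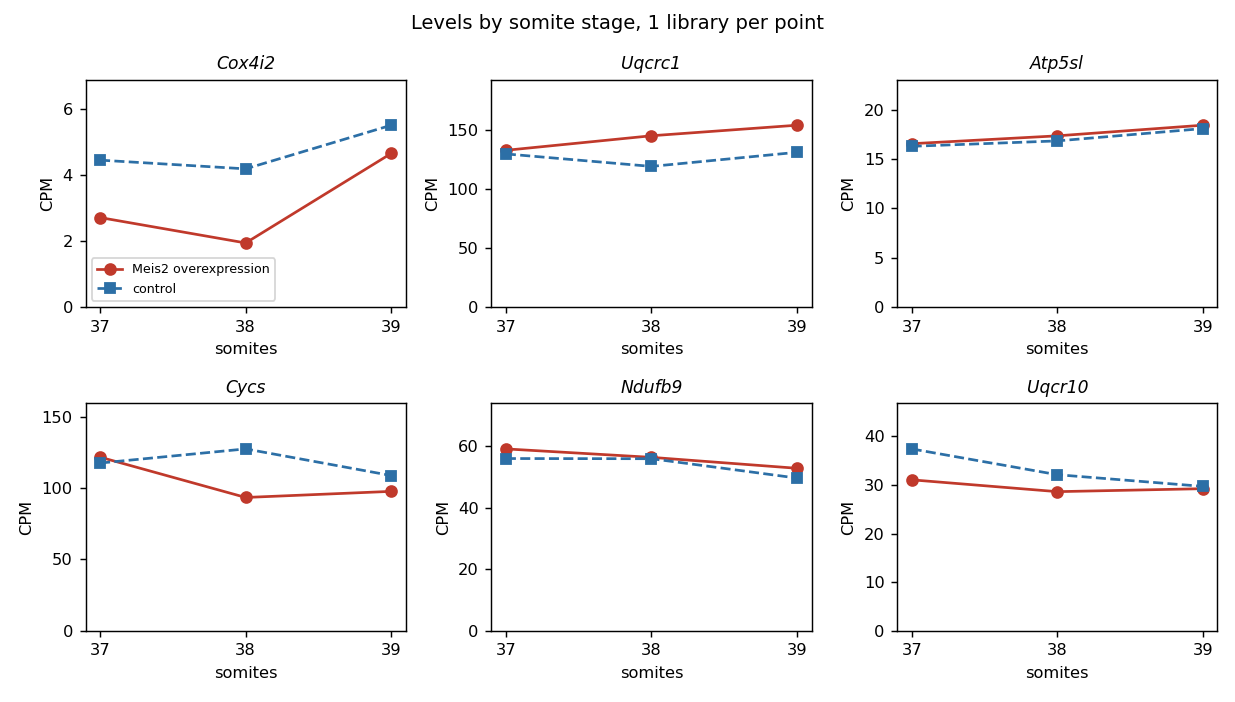
CPM at 37, 38 and 39 somites in Meis2 overexpression (red circles) and control (blue squares) for the 3 chain genes with the smallest slope p above 0 (top) and below 0 (bottom), 1 library per point. No slope was called, and Cox4i2 stays under 6 CPM throughout.

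Near-identical copies limit how reads could be assigned. Such copies were sought among all annotated transcripts. In GENCODE M21, 18 of the 83 genes have at least 1 copy elsewhere that matches at 97% identity or more, 31 copies in all, of which 29 are annotated as pseudogenes. The other 65 genes have none by this measure, and their median log2 fold change was -0.02 with 8 of 65 lower (12.3%) and 1 higher (1.54%) without overlap, against 10.4% of all genes in each direction. Only 8 of the 31 copies, of 7 genes, have a row in the table, and reads of the others may be in the member or in no row.

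The copy that was called is Gm15920. This gene model, annotated as a pseudogene of the complex I accessory gene Ndufa12, had 15.9, 18.5 and 18.4 CPM in Meis2 overexpression, against 31.6, 30.4 and 27.5 CPM in controls, a log2 fold change of -0.73 with an SE of 0.10 and an adjusted p of 0.00562 in limma, lower in Meis2 overexpression. It was called in every alternative fit that kept its row, with adjusted p between 7.65e-06 and 0.0274. Ndufa12 itself had 33.1, 29.3 and 32.6 CPM in Meis2 overexpression, against 30.1, 33.1 and 25.5 CPM in controls, overlapping, with a log2 fold change of 0.10. The 2 rows summed gave 49.0, 47.8 and 51.0 CPM in Meis2 overexpression, against 61.7, 63.4 and 53.1 CPM in controls, without overlap, at a log2 fold change of -0.26 and an adjusted p of 0.154. Rabgef1, within whose locus Gm15920 lies, had 18.9, 18.4 and 22.3 CPM in Meis2 overexpression, against 23.2, 21.5 and 21.8 CPM in controls, with overlapping groups. Whether reads of Ndufa12 and Gm15920 were divided alike in all libraries was not tested.

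The coding sequence of Ndufa12 (chr10:94198955-94221443, plus strand, exonic) and Gm15920 (chr5:130188395-130188796, plus strand) aligned over 402 bases with 2 differences, 99.5% identity. Aligned bases 89 to 388 of GENCODE M21 transcripts (GRCm38) are given because within them a read can be told apart only where it spans a differing letter. Capitals mark the differing letters, and the coordinates are those of the whole transcripts.
Ndufa12: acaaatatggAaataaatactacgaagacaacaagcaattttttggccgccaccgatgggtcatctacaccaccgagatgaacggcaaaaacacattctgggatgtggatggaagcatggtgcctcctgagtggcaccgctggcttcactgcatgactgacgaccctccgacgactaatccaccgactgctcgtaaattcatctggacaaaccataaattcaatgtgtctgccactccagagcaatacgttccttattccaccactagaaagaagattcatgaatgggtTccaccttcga
Gm15920: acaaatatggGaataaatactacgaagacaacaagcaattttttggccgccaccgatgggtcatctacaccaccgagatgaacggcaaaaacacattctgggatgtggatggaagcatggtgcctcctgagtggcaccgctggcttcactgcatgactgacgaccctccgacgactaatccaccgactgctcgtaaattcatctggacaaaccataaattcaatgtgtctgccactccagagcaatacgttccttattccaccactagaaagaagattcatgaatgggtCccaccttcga

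**Figure D5:**
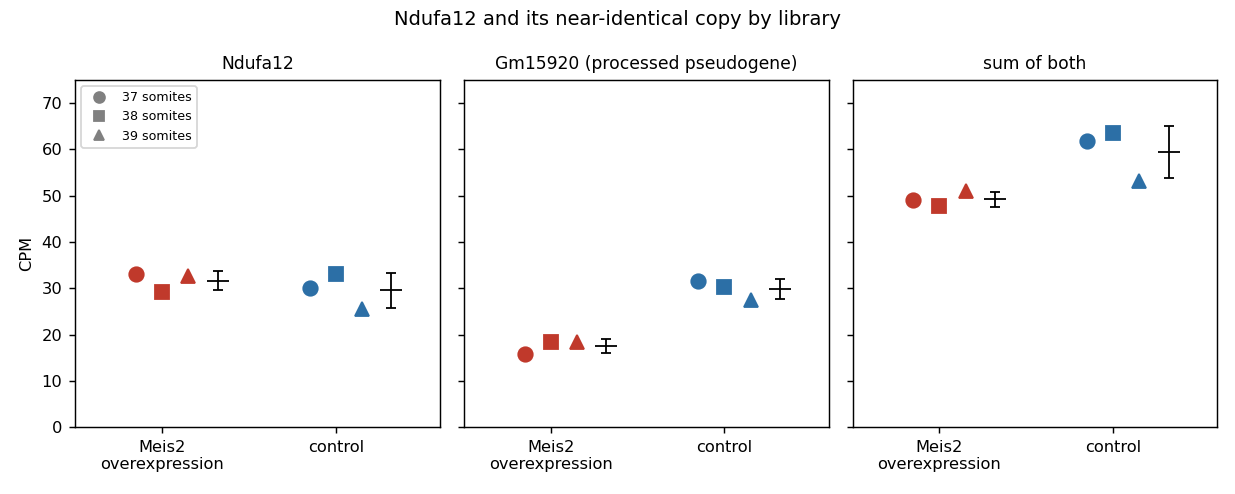
CPM of Ndufa12, of its copy Gm15920 and of their sum in each library, Meis2 overexpression left of control, with the mean ± SD of 3 as bars. Gm15920 is lower in every Meis2 overexpression pool, Ndufa12 overlaps, and the sum is lower with a smaller gap.

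The other copies with rows were not called. For Cycs, Gm10053 (annotated as protein-coding) and Gm10108 held 46.3% of the summed CPM, and the sum was 217, 189.6 and 194 CPM in Meis2 overexpression, against 215, 230.4 and 198 CPM in controls, at a log2 fold change of -0.10, against -0.18 for Cycs alone. The copy Gm3244 held 74.6% of the sum with Ndufb4, an accessory subunit of complex I. Ndufb4 had 5.05, 7.12 and 5.30 CPM in Meis2 overexpression, against 6.06, 5.32 and 6.83 CPM in controls. Gm3244 had 17.3, 18.8 and 17.7 CPM in Meis2 overexpression, against 18.7, 19.9 and 12.7 CPM in controls. Both overlapped. BC002163 held 30.9% of the sum with Ndufs5, another accessory subunit. That sum was 29.7, 29.7 and 29.9 CPM in Meis2 overexpression, against 26.2, 27.9 and 26.8 CPM in controls, higher in every Meis2 overexpression pool, with a log2 fold change of 0.14 and an adjusted p of 0.397 in limma, while Ndufs5 alone overlapped. For Atp5g1, Cox7a2l and Cox7c the copies held 17.5%, 18.8% and 9.15% of the sums, and the fold changes of the sums were within 0.02 of those of the genes on the log2 scale. mt-Nd4l and its nuclear copy Gm10222 had the same value in all 6 libraries, at 100% identity over 294 bases.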

How the data were processed

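PolyA RNA of 6 pools (2 embryos each) was sequenced, and the labels do not say how litters were divided, so p-values measure the spread between these pools. Per the submitters' processing notes, the tools were cutadapt 1.2.1, RSEM 1.17 and edgeR, with build NCBIM37. The authors deposited CPM values per gene in a table of 12065 genes. In every library 100% of these CPM values came within 0.001 reads of a whole multiple of 1 read, and the reads were recovered for the count tests, in which edgeR called 171 genes.

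The main test was limma 3.58.1 (R 4.3.3; lmFit, eBayes with a trend) on log2(CPM + 1) over all genes, with Benjamini-Hochberg adjusted p under 0.05 as the call. A fold change on this scale understates changes of low genes, and an exact permutation test of 3 against 3 cannot go below 0.1. edgeR 4.0.16 and DESeq2 1.42.0 on recovered reads, other pseudocounts, filters, scalings and covariates, and each library left out were alternatives. Of these tests, the limma fit of genotype was tried on simulated counts. The members, lists and tests were chosen with earlier results of these data known. Genes with values in every library are, per complex, the highest level and the highest and lowest fold change (mean of at least 5 CPM, no copy), paralogues, extreme slopes, genes of no subunit, and the 3 genes of smallest p in each other list, some of these by fold change alone. Ndufc2, Sdhc, Cox5b, Atp5a1, Tfam, Nrf1, Gabpa and mt-Co1 were named after their values were seen. The values of 1 gene are not reported here, though it is in all counts, medians and sums.

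Copies were found with blastn 2.17.0 among GENCODE M21 transcripts (identity of 97% or more over 100 or more bases that cover 50% or more of the shorter member of the pair). Lengths and transcript coordinates are from GENCODE M21, the lengths matched by gene identifier. Promoter windows are from RefSeq, matched by symbol or synonym. Both are on GRCm38, since no annotation of NCBIM37 was used here.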

Additional observations from a re-analysis of the deposited data

How the results depend on the processing

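No respiratory chain gene was called in any of the 17 alternative fits of the genotype comparison, and the lowest adjusted p was 0.0837. Of 525 values of the 31 named genes under the alternatives, 0 were newly called and 524 moved by less than 1 residual SD. Most of these shifts could not have been larger. Leaving out 1 library cannot move a value by 1 residual SD, because that library's own deviation is part of the SD. The somite covariate, the replicate block and robust moderation leave the fold change unchanged by design. The count of 524 is therefore no measure of robustness. None of the 31 genes was called, and 24 of the 525 values, of 13 genes, changed sign, 21 of them with 1 library left out. The other 3 were Sdhaf1 at -0.0087 with quantile scaling, -0.014 with edgeR and -0.011 with DESeq2. Ndufa12 and Ndufb4, which are not among the 31, changed sign with near-identical copies summed, from 0.10 to -0.26 and from -0.06 to 0.04. With 1 library left out the log2 fold changes ran over -0.0077 to 0.025 for Atp5b, -0.0069 to 0.0202 for Atp5g2, -0.062 to 0.0038 for Atp5g3, -0.0086 to 0.0695 for Atp5sl, -0.0074 to 0.087 for Cox4nb, -0.0301 to 0.102 for Cox6a1, -0.179 to 0.015 for Cox6b2, -0.0064 to 0.073 for Cox7a2l, -0.034 to 0.101 for Cox8a, -0.057 to 0.026 for Ndufa4, -0.107 to 0.0796 for Sdhaf1, -0.016 to 0.052 for Sdhaf2 and -0.0600 to 0.022 for Uqcrc2, so no direction is firm for these. The median over the 83 genes ran over -0.05 to -0.01 with 1 library left out. Over all genes the count of calls changed: 177 in limma, against 86 with robust moderation without a trend, 290 with DESeq2 and 340 with somite number as a covariate, and 56 to 162 with 1 library left out (56, 64 and 90 without the Meis2 overexpression pool of 38 somites, the control pool of 39 and the control pool of 38, and 115 without the Meis2 overexpression pool of 37). The cause was not tested. With the replicate block the count was 258, with 0 of the 83 called. Same-numbered pools, which share a somite stage, had correlations of deviations of 0.03, -0.15 and 0.38, so the numbers were not taken as pairs. Depth limits mainly Cox4i2, Cox6b2 and Atp5s, the only genes of the 83 with a mean under 5 CPM.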
